A study of Mus musculus with 2 samples.

Results

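The enzymes of glycolysis and the TCA cycle were followed in single-cell RNA sequencing of sorted Lin- Sca-1+ c-Kit+ (LSK) bone marrow cells, the marrow cells among which haematopoietic stem and progenitor cells (HSPCs) are found. The set holds 37 genes of 27998 in the matrices: 18 of glucose uptake and glycolysis, 4 of the pentose phosphate pathway, 5 of pyruvate entry and 10 of the TCA cycle with its NADP-linked isocitrate dehydrogenases. They were chosen by symbol for their place in the pathway, and all 37 were found. The study compared 1 library of Trmt6 WT cells, labelled Trmt6fl/fl with no recombinase, with 1 library of Trmt6 cKO cells, labelled Trmt6fl/fl with MX1-cre, both from mice 3 months of age. The TRMT6 protein is part of the tRNA m1A methyltransferase, and MX1-cre is an interferon-inducible recombinase active in blood cells and in other interferon-responsive cells. The paper's description of the single-cell experiment instead gives the recombinase, and polyI:C to induce it, to both genotypes. It names the control Trmt6+/+ with Mx1-Cre, and not Trmt6fl/fl. The number of mice pooled is not given in the sources used here, and library and genotype cannot be told apart, so no difference has a replicate check and no p-value is given.

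Glycolysis splits glucose into pyruvate in the cytosol, with a small yield of ATP, and lactate dehydrogenase reduces pyruvate to lactate. The pentose phosphate pathway branches off at glucose 6-phosphate and makes NADPH and ribose. Pyruvate that enters the mitochondrion is turned into acetyl-CoA, which citrate synthase feeds into the TCA cycle. Stem cells of the marrow are known for a reliance on glycolysis, in which pyruvate dehydrogenase kinases hold pyruvate back from the mitochondrion.

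The WT library kept 8143 cells with 43014536 UMIs (unique molecular identifiers, each 1 counted RNA molecule) and a median of 4277 per cell. The cKO library kept 8476 cells with 88203569 UMIs and a median of 10145.5 per cell. Levels are CPM, the UMIs of a gene in every 1000000 UMIs summed over cells, and were read from the 3′ end of transcripts, so they are not divided by length. Each interval given is at the 95% level and covers counting error alone. Trmt6 itself was counted at 64.3 CPM in WT and 50.4 in cKO, and 3′ counts do not show whether a part of the gene further upstream was removed. All 7 surface antigens listed for the sort had UMIs in both libraries, with summed levels of 1365 CPM in WT and 973 in cKO. In spite of the lineage depletion, 8 neutrophil granule genes summed to 5649 CPM in WT and 7.97 in cKO, and 5 granulocyte-monocyte genes to 6600 and 738 CPM. The 6 plasma cell genes summed to 81.6 and 572 CPM, and the 9 erythroid genes to 75.5 and 268 CPM. The part of these cells in the results was not tested, and in sums over all cells a change in cell mix and a change within cells cannot be told apart. Values by lineage, and for some members in cells with few myeloid UMIs, are given with the results.

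Over all kept cells the set showed no common direction. Of the 37 members, all of which reached 5 CPM in at least 1 library, 19 had a ratio above 1 (cKO over WT) and 18 below, with a median log2 ratio of 0.07, against -0.06 over the 9134 genes at that level. Ratios of 1.5-fold or more were found in 4 members that were higher in cKO (10.8%, against 6.89% of all genes tested) and in 6 that were lower (16.2%, against 13.7%), shares near those of all genes. The higher genes were Slc2a1, Slc2a3, Ldha and Cs, and the lower genes were Hk2, Aldoc, Pgk1, G6pdx, Pdk2 and Idh1. The interval lay wholly beyond 1.5-fold for Ldha, Aldoc, Pgk1 and Idh1. Under 13 alternative treatments of all cells, Ldha, Aldoc, Pdk2 and Idh1 were past 1.5-fold in each, Cs in 10, Slc2a1 and Hk2 in 9, Pgk1 and G6pdx in 8 and Slc2a3 in 7. With the TMM factor in place of total UMIs, 7 members were higher and 5 lower by 1.5-fold, against 9.49% and 10.7% of all genes tested. Summed by step, glycolysis transcripts were at 3610 CPM in WT and 4413 in cKO (log2 ratio 0.29), with 11 of 18 members above a ratio of 1. Pentose phosphate transcripts were at 687 and 531 CPM (-0.37), and pyruvate entry with its kinases at 218 and 215 CPM (-0.02). The 10 genes listed with the TCA cycle were at 1390 and 1454 CPM (0.07). That sum is not of the cycle alone. It holds the cytosolic Idh1 and Mdh1 and the NADP-linked Idh2, each lower in cKO, as was Ogdh of the cycle.

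**Figure D1:**
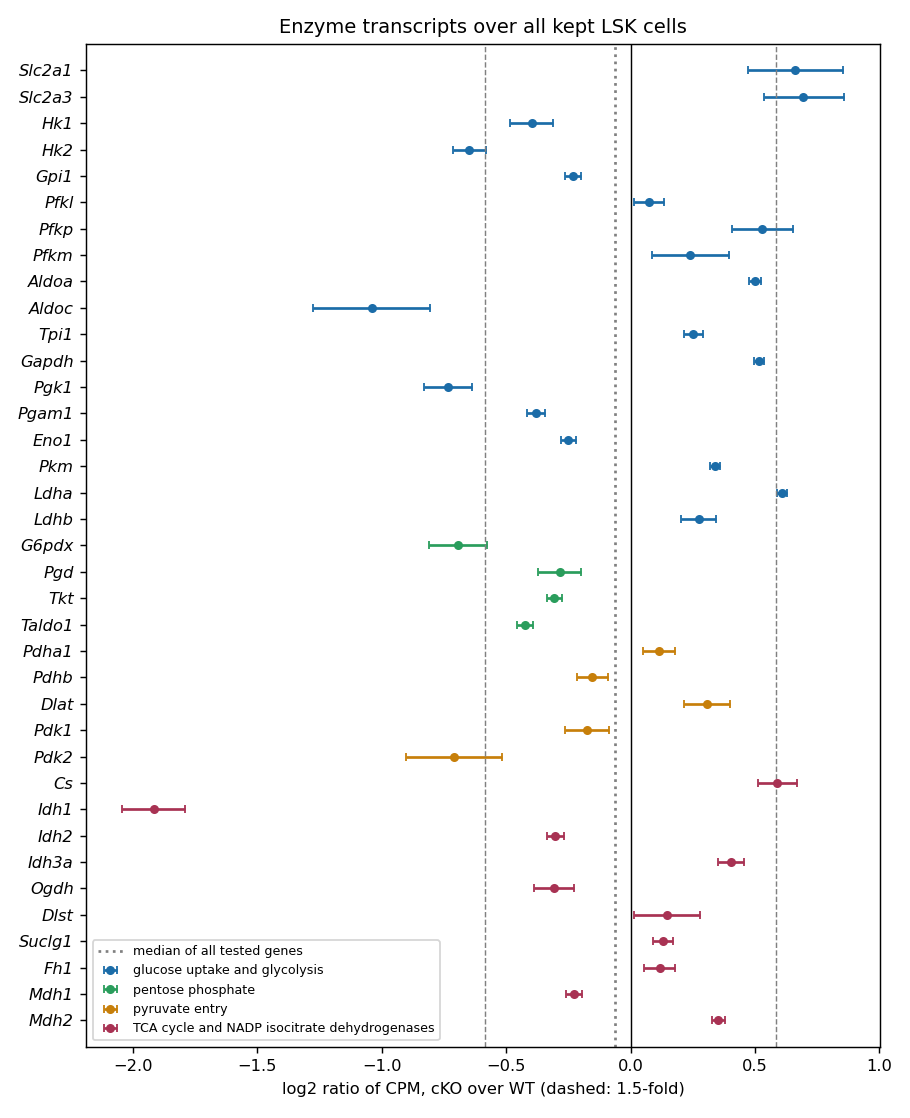
Points give the log2 ratio of CPM (cKO over WT) of each of the 37 enzymes over all kept cells, coloured by step of the pathway, with bars for the 95% counting interval. The solid line marks equal levels, the dashed lines 1.5-fold and the dotted line the median of all genes tested (-0.06); Idh1 lies farthest to the left at -1.92 and Slc2a3 farthest to the right at 0.69.

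Among the glucose transporters, Slc2a1, which encodes GLUT1, was counted at 6.97 CPM in WT and 11.03 in cKO (log2 ratio 0.66, 0.47 to 0.85). Slc2a3, which encodes GLUT3, was at 9.65 and 15.6 CPM (0.69, 0.53 to 0.86). Both hexokinases, which trap glucose in the cell as glucose 6-phosphate, were lower in cKO. Hk2 was at 75.1 CPM in WT and 47.9 in cKO (-0.65, -0.71 to -0.58), and Hk1 at 42.1 and 32.0 CPM (-0.40, -0.48 to -0.31). Gpi1, the isomerase of the next step, was at 262 and 223 CPM (-0.23), but in each gate described further on its ratio was above 1, from 0.06 in the megakaryocyte to 0.24 (0.09 to 0.40) in the lymphoid-primed gate. Over all cells the ratio of Gpi1 was -0.05 in cells with few granulocyte-monocyte and neutrophil UMIs, -0.05 in cells with few cycle markers and 0.02 with the same mix of gates in both libraries. In cells with few neutrophil UMIs alone it was -0.21. The 3 phosphofructokinases, which carry out the committed step, had ratios above 1. Pfkp was at 16.7 CPM in WT and 24.1 in cKO (0.53, 0.41 to 0.65), whereas Pfkl (77.2 and 81.2 CPM, 0.07) and Pfkm (11.2 and 13.3 CPM, 0.24) were nearer to equal and took the other sign under some alternatives. The aldolases, which split the hexose, moved apart. Aldoa was at 474 CPM in WT and 670 in cKO (0.50, 0.48 to 0.52), and Aldoc at 7.02 and 3.41 CPM (-1.04, -1.28 to -0.81).

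The later steps of glycolysis were no more uniform. Triose phosphate isomerase (Tpi1) was at 185 CPM in WT and 220 in cKO (log2 ratio 0.25). Gapdh, the dehydrogenase that yields NADH, was at 613 and 877 CPM (0.52, 0.50 to 0.54). Its neighbour in the pathway went the other way: Pgk1, the first ATP-yielding kinase, was at 36.9 CPM in WT and 22.2 in cKO (-0.73, -0.83 to -0.64). Phosphoglycerate mutase (Pgam1, 231 and 177 CPM, -0.38) and enolase (Eno1, 308 and 259 CPM, -0.25) were also lower in cKO. Pgam1 was nearer to equal in cells with few granulocyte-monocyte and neutrophil UMIs (-0.04), in cells in no gate (-0.09), with the same mix of gates (-0.08) and in cells with few cycle markers (0.05). In cells with few neutrophil UMIs alone its ratio was -0.38. By gate its ratio was -0.06 in the stem, -0.05 in the lymphoid-primed and -0.10 in the granulocyte-monocyte gate, each with an interval that included 0, and 0.51 (0.11 to 0.91) in the megakaryocyte gate. Pkm, the pyruvate kinase of most tissues, was at 621 and 785 CPM (0.34, 0.32 to 0.36). Ldha, which makes the subunit of lactate dehydrogenase common in glycolytic cells, was at 582 CPM in WT and 888 in cKO (0.61, 0.59 to 0.63) and stayed 1.5-fold higher under all 13 alternatives. Ldhb, the subunit common in oxidative tissues, was at 51.7 and 62.4 CPM (0.27, 0.20 to 0.35), and by lineage its direction was different, as given with the marker gates. Glycolytic genes such as Gapdh, Pgk1, Pgam1 and Eno1 have processed copies in the mouse genome, and reads that match several places may be shared or lost, so their levels are uncertain; the copy Eno1b was counted at 0.256 and 0.227 CPM.

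All 4 members of the pentose phosphate pathway were lower in cKO over all cells, under each scaling. G6pdx, whose product commits glucose 6-phosphate to the pathway, was at 25.3 CPM in WT and 15.7 in cKO (log2 ratio -0.69, -0.81 to -0.58). Pgd, the second NADPH-yielding enzyme, was at 41.0 and 33.6 CPM (-0.29). The enzymes of the non-oxidative branch were at 315 and 255 CPM for Tkt (-0.31) and at 305 and 227 CPM for Taldo1 (-0.43). The summed granulocyte-monocyte and neutrophil genes, given above, were also lower in cKO, and their part in these ratios was not tested. In cells with under 10 UMIs each of the granulocyte-monocyte and neutrophil lists at 2000 UMIs per cell, a comparison added after the data were seen, the ratios were -0.35 for G6pdx, 0.10 for Pgd, -0.17 for Tkt and -0.22 for Taldo1, and the number of members 1.5-fold lower in cKO was 3. In cells with few neutrophil UMIs alone, the ratios were -0.61, -0.22, -0.29 and -0.40 in the same order, and 6 members were lower. No share of all genes is given for these counts.

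Over all cells the summed transcripts of pyruvate entry were near equal, with Pdk2 the member beyond 1.5-fold. The sum adds the pyruvate dehydrogenase complex to kinases that switch it off, so it gives no direction for entry. Pdha1 and Pdhb encode the subunits of the first enzyme of the pyruvate dehydrogenase complex and Dlat its acetyltransferase. Pdha1 was at 64.7 CPM in WT and 70.0 in cKO (log2 ratio 0.11), Pdhb at 76.3 and 68.6 CPM (-0.15) and Dlat at 30.4 and 37.6 CPM (0.31, 0.22 to 0.40). Of the kinases that switch the complex off, both members of the set were lower, while Pdk3, outside the set, was higher, at 43.6 CPM in WT and 65.6 in cKO (0.59). Pdk2 was at 9.37 and 5.73 CPM (-0.71, -0.90 to -0.52), and Pdk1, a target of the hypoxia factor HIF1, at 36.9 and 32.7 CPM (-0.17, with the other sign under one alternative).

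The largest difference of the set was seen in Idh1, the cytosolic isocitrate dehydrogenase. It was listed with the TCA cycle but makes NADPH outside the mitochondrion and is not a step of the cycle. Idh1 was counted at 34.0 CPM in WT and 9.0 in cKO (log2 ratio -1.92, -2.04 to -1.79), at percentile 1.75 of the ratios of all genes tested. Over the 13 alternatives the ratio of Idh1 ranged from -1.94 to -1.13, the value in cells with few granulocyte-monocyte and neutrophil UMIs. Its mitochondrial counterpart Idh2 was at 250 and 202 CPM (-0.30). Cs, citrate synthase, the entry to the cycle, was at 40.3 CPM in WT and 60.6 in cKO (0.59, 0.51 to 0.67). Idh3a, the catalytic subunit of the NAD-linked isocitrate dehydrogenase, was at 93.5 and 124 CPM (0.40, 0.35 to 0.45). The 2-oxoglutarate dehydrogenase complex was divided, with Ogdh at 45.5 and 36.8 CPM (-0.31) and its partner Dlst at 15.6 and 17.3 CPM (0.15). Suclg1, a subunit of succinyl-CoA ligase (154 and 169 CPM, 0.13), and Fh1, fumarase (68.3 and 74.0 CPM, 0.12), were close to equal. The malate dehydrogenases moved apart by compartment: the mitochondrial Mdh2 was at 410 and 524 CPM (0.35, 0.33 to 0.38), and the cytosolic Mdh1 at 279 and 238 CPM (-0.23, -0.26 to -0.20).

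The promoters of members beyond 1.5-fold were searched on both strands for ACGTG, the core bound by HIF1; for CACGTG, the E-box bound by MYC and USF factors, which holds ACGTG on each strand; and for TTGCATC, part of the C/EBP-ATF response element. The window ran from 250 bases before to 50 bases after each RefSeq start. ACGTG was found in 19.6% of all 32851 windows and in 23 of the 55 windows of 35 members (41.8%), where windows of a gene can overlap; no window was used for Slc2a3 and Idh3a. CACGTG was found in 7.15% of all windows and 10.9% of the members', and TTGCATC in 2.53% and in 5.45%, all in Ogdh. Counted by gene, ACGTG was present in at least 1 window of 16 of the 35 members (45.7%), against 21.8% of all 27025 genes with a window and 31.0% of the 7104 of them that reached 5 CPM. The members had more windows per gene (1.57) than these (1.22 and 1.27), which raises such a count. It was present for 7 of the 9 members beyond 1.5-fold that had a window, on either side of the comparison: Slc2a1 and Ldha, higher in cKO, and Hk2, Aldoc, Pgk1, G6pdx and Pdk2, lower. The windows of Cs and Idh1 held none. To show this, 2 promoters of higher and 2 of lower members are given 5′ to 3′ on the gene's strand (RefSeq, GRCm38.p6), with ACGTG or its complement CACGT in capitals and CACGTG in capitals as a whole. They lie at chr4:119108495-119108794 for Slc2a1 (plus strand), chr7:46845554-46845853 for Ldha (plus strand), chr6:82774405-82774704 for Hk2 (minus strand) and chrX:106186850-106187149 for Pgk1 (plus strand).
Slc2a1: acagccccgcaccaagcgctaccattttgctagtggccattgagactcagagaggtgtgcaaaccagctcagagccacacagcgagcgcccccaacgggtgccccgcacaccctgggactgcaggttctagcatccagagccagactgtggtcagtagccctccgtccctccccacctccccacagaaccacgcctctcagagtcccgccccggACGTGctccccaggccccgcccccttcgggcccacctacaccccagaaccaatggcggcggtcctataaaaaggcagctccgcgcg
Ldha: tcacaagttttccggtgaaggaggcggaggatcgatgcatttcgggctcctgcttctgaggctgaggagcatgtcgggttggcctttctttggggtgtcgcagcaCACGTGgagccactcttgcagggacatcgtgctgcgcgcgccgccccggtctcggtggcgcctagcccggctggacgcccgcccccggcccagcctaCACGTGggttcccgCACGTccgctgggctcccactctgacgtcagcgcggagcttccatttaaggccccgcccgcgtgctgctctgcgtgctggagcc
Hk2: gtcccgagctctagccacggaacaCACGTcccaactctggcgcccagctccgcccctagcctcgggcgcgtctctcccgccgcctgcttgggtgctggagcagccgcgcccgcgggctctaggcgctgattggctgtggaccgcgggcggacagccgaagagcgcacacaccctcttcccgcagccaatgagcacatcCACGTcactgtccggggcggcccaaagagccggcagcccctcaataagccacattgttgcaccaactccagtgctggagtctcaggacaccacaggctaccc
Pgk1: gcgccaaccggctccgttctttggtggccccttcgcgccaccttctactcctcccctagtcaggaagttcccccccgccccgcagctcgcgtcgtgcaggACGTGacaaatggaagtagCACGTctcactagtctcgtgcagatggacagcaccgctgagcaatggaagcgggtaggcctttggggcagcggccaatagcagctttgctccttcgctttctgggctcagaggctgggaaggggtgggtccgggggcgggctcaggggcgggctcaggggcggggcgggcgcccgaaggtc
The Ldha window shown held ACGTG 5 times, counted on both strands, with 2 CACGTG among them; a second Ldha window held neither. The windows of Hk2 and Pgk1 held it 2 times each and that of Slc2a1 once. A match is a string of letters in this window and not a bound site, and genes with the string stood on both sides of the comparison.

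The comparison was then made within lineages, by gates on marker genes. Each cell was thinned to 2000 UMIs, so that the deeper library had no advantage, which left 7950 WT and 8378 cKO cells. The stem gate (Procr, Hlf, Mecom and 5 others) took cells with 2 or more different markers and held 546 WT and 896 cKO cells. By the same rule the lymphoid-primed gate (Dntt, Flt3, Il7r and 5 others) held 864 and 226 cells, and the megakaryocyte gate (Pf4, Itga2b, Gp9 and others) 267 and 48 cells. The granulocyte-monocyte gate, of cells with 10 or more UMIs of Mpo, Elane, Prtn3, Ctsg and Ms4a3, held 1326 and 90 cells. Gates are ranges and not cell types: between 73.8% and 85.4% of cells in the gates with 2 markers had exactly 2. The gated cells also differed beyond the enzymes. The summed markers of the gate itself were lower in cKO in each gate. They were at 18116 and 9671 CPM in the granulocyte-monocyte gate and at 3585 and 996 CPM in the megakaryocyte gate. In the stem gate they were at 1041 and 703 CPM, and in the lymphoid-primed gate at 1756 and 1470 CPM. The neutrophil genes were at 317 and 3.73 CPM in the stem gate and at 3291 and 126 CPM in the granulocyte-monocyte gate. In the stem gate the granulocyte-monocyte genes were at 1469 and 503 CPM, the erythroid genes at 72.0 and 410 CPM and the plasma cell genes at 71.4 and 259 CPM, and 48.5% of WT against 36.8% of cKO cells had few cycle markers. The granulocyte-monocyte genes were at 1572 and 471 CPM and the neutrophil genes at 223 and 3.08 CPM in the lymphoid-primed gate, and in the megakaryocyte gate they were at 673 and 287 CPM and at 219.7 and 0 CPM. The lymphoid-primed gate also had the B cell genes at 136 and 899 CPM, the plasma cell genes at 91.8 and 488 CPM and the erythroid genes at 25.5 and 113 CPM, and 34.1% of its WT against 20.4% of its cKO cells had few cycle markers. What this adds to the ratios was not tested. The cells of the gates are part of all kept cells and are not a second sample.

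In the stem gate, 31 members were at 20 CPM or more, of which 3 were 1.5-fold higher in cKO (7.42% of all genes tested at that level) and 3 were lower (16.1%). In the lymphoid-primed gate 5 of 29 were higher (against 9.22%) and 4 lower (against 13.4%). In the granulocyte-monocyte gate 4 of 32 were higher (against 9.3%) and 3 lower (against 10.4%). In the megakaryocyte gate, the smallest, 7 of 31 were higher (against 11.8%) and 2 lower (against 17.6%). With no level asked, the members higher and lower numbered 4 and 5 in the stem, 6 and 6 in the lymphoid-primed, 6 and 5 in the granulocyte-monocyte and 7 and 6 in the megakaryocyte gate. No share of all genes without a level is given for these counts, so they cannot be set against a background. The gates draw on the same 2 libraries, so a like sign in several is not independent. Of 28 members at 20 CPM or more in every gate, 10 were above a ratio of 1 in all 4 gates and over all cells, against 23.3% of the 4629 genes at that level, and 2 (Pgk1 and Mdh1) were below, against 24.3%. For 5 of the 28 (Aldoa, Gapdh, Ldha, Idh3a and Mdh2) the interval lay above 0 in each gate and over all cells, against 6.52% of these genes, and for 0 it lay below, against 6.16%; the width of an interval follows the UMIs of the gene. The intervals of Pfkp, under 20 CPM in one gate, also lay above 0. The ratio of Pfkp, from 25 UMIs in WT in both the stem and the megakaryocyte gate, turned under other gates. With size factors computed within the gate, the split of higher and lower members was 7 and 3 in the stem gate, 8 and 4 in the lymphoid-primed gate and 11 and 1 in the megakaryocyte gate. The shares of all genes tested were then 9.85% and 13.0%, 10.4% and 12.5%, and 14.8% and 15.1%.

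**Figure D2:**
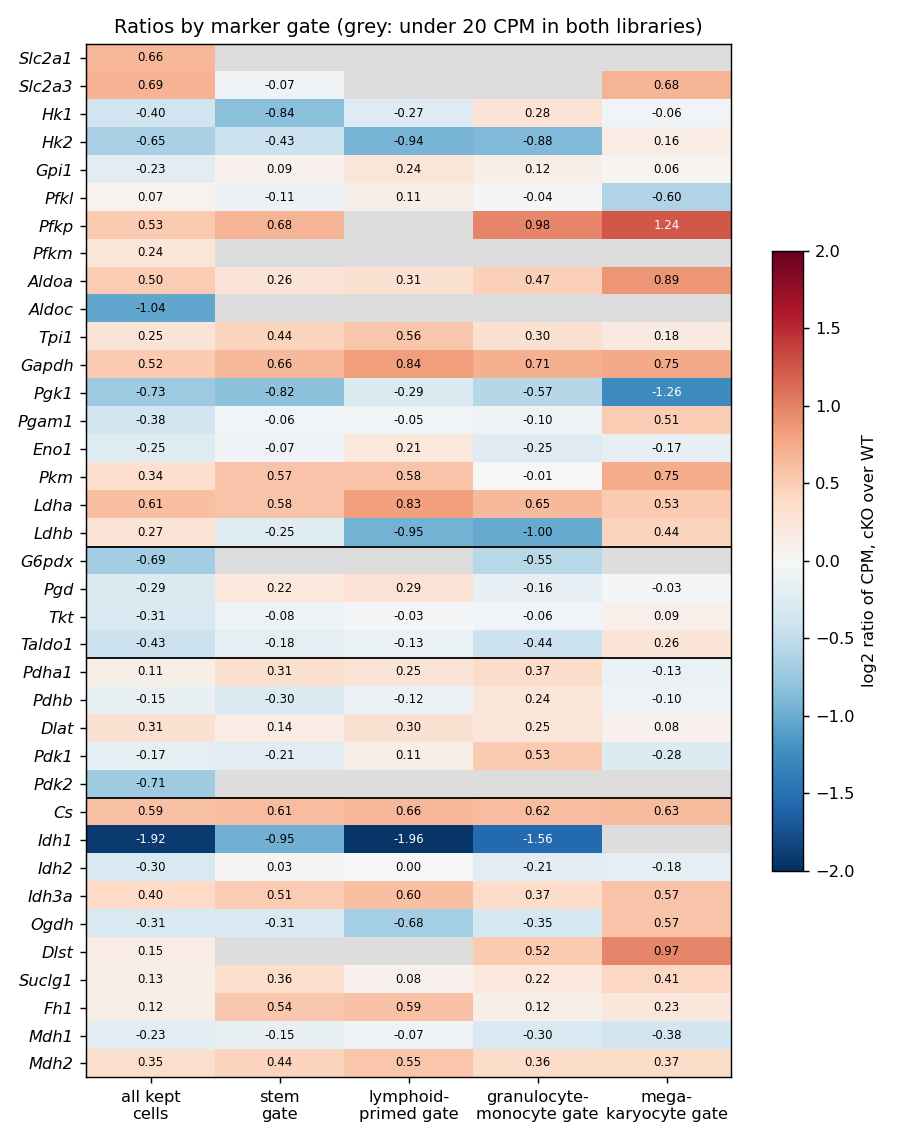
Cells of the map give the log2 ratio of CPM (cKO over WT) for each enzyme, in rows by step of the pathway, over all kept cells and in 4 marker gates; red is higher and blue lower in cKO, and grey marks genes under 20 CPM in both libraries of a gate. Gapdh, Ldha and Cs are red in each column and Idh1 is blue in all but the last, where it is under the level.

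Ldha was higher in cKO at each gate. It stood at 511 CPM in WT and 762 in cKO in the stem gate (log2 ratio 0.58), at 437 and 775 CPM in the lymphoid-primed gate (0.83), at 671 and 1053 CPM in the granulocyte-monocyte gate (0.65) and at 825 and 1188 CPM in the megakaryocyte gate (0.53). Gapdh had ratios of 0.66, 0.84, 0.71 and 0.75 in the same order, all above its ratio over all cells. Cs was at 32.7 and 50.3 CPM in the stem gate (0.61, 0.22 to 1.04) and had ratios of 0.66, 0.62 and 0.63 in the others, although in the megakaryocyte gate its 28 UMIs in cKO left an interval that included 0. Mdh2 (0.36 to 0.55) and Idh3a (0.37 to 0.60) were higher in each gate. Fumarase, close to equal over all cells, was higher in the stem gate (45.8 and 67.0 CPM, 0.54, 0.21 to 0.90) and the lymphoid-primed gate (65.8 and 99.0 CPM, 0.59, 0.31 to 0.87). Pkm was higher in the stem gate (518 and 767 CPM, 0.57), the lymphoid-primed gate (0.58) and the megakaryocyte gate (0.75), but equal in the granulocyte-monocyte gate, at 834 CPM in WT and 829 in cKO (-0.01, -0.10 to 0.08).

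Members that were 1.5-fold lower or higher over all cells did not all keep that direction by lineage. Idh1 was at 22.9 CPM in WT and 11.9 in cKO in the stem gate (log2 ratio -0.95, -1.49 to -0.38), at 20.8 and 5.13 CPM in the lymphoid-primed gate (-1.96) and at 68.9 and 23.0 CPM in the granulocyte-monocyte gate (-1.56). In the megakaryocyte gate it was under 20 CPM in both libraries, at 16.7 and 16.1 CPM from 22 and 9 UMIs. When the stem gate was narrowed to 3 markers, the ratio of Idh1 there turned to 0.41. Hk2 was lower in the stem (-0.43), lymphoid-primed (-0.94) and granulocyte-monocyte (-0.88) gates, with a ratio of 0.16 (-0.56 to 0.81) in the megakaryocyte gate. Hk1 was lower in the stem gate (57.8 and 32.3 CPM, -0.84, -1.17 to -0.49), and in the other gates its interval included 0. Pgk1 was below 1 in each gate, from -0.29 (-0.83 to 0.20) in the lymphoid-primed to -1.26 in the megakaryocyte gate, where it had 7 UMIs in cKO. The glucose transporters rested on few UMIs. Slc2a1 had ratios of 0.19, 0.41 and 0.73 in the stem, lymphoid-primed and granulocyte-monocyte gates, each with an interval that included 0, and 9 UMIs in WT against 1 in cKO in the megakaryocyte gate. Slc2a3 was at 20.7 and 19.9 CPM in the stem gate (-0.07, -0.58 to 0.50) and at 4.65 and 10.8 CPM in the granulocyte-monocyte gate, where it had 16 UMIs in cKO and an interval of the log2 ratio from 0.32 to 2.04.

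Ldhb had another direction in 3 of the gates than over all cells. It was at 128 CPM in WT and 108 in cKO in the stem gate (log2 ratio -0.25, -0.46 to -0.03), at 52.8 and 27.2 CPM in the lymphoid-primed gate (-0.95, -1.42 to -0.51) and at 39.9 and 19.6 CPM in the granulocyte-monocyte gate (-1.0, -1.62 to -0.48). In the megakaryocyte gate it was at 38.6 and 51.9 CPM (0.44, -0.28 to 1.11). With the cKO gates and ungated cells weighted to the WT mix, the ratio over all cells was -0.13 in place of 0.27. In the cells of no gate, 4819 in WT and 7109 in cKO, it was 0.22, in cells with few granulocyte-monocyte and neutrophil UMIs 0.17, and in cells with few cycle markers 0.02. In cells with few neutrophil UMIs alone it was 0.31. Summed by step, glycolysis UMIs were higher in cKO in each gate. The log2 ratios were 0.33 in the stem, 0.49 in the lymphoid-primed, 0.30 in the granulocyte-monocyte and 0.50 in the megakaryocyte gate. Such a sum follows its most abundant genes, here Gapdh, Ldha, Pkm and Aldoa. Of the 18 members, 9 were above a ratio of 1 and 9 below in the stem gate (median log2 ratio -0.015). In the other gates 11 were above and 7 below (lymphoid-primed), 10 and 8 (granulocyte-monocyte) and 12 and 6 (megakaryocyte). The genes listed with the TCA cycle, Idh1, Idh2 and Mdh1 among them, had log2 ratios of 0.22, 0.23, 0.08 and 0.21. These are in the order stem, lymphoid-primed, granulocyte-monocyte and megakaryocyte gate. Pyruvate entry, with the kinases Pdk1 and Pdk2 in the sum, was at 234 and 289 CPM in the granulocyte-monocyte gate (0.31, 0.16 to 0.45). In the other gates its interval included 0. The pentose phosphate enzymes, all lower over all cells, were nearer to equal in gates: in the stem gate they summed to 538 and 500 CPM (-0.11), in the lymphoid-primed gate to 581 and 556 CPM (-0.06) and in the megakaryocyte gate to 501 and 545 CPM (0.12). In the granulocyte-monocyte gate the sum was at 874 and 736 CPM (-0.25, -0.34 to -0.16), with Taldo1 at 398 and 294 CPM (-0.44) and G6pdx at 35.1 and 23.7 CPM (-0.55, -1.11 to -0.07).

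**Figure D3:**
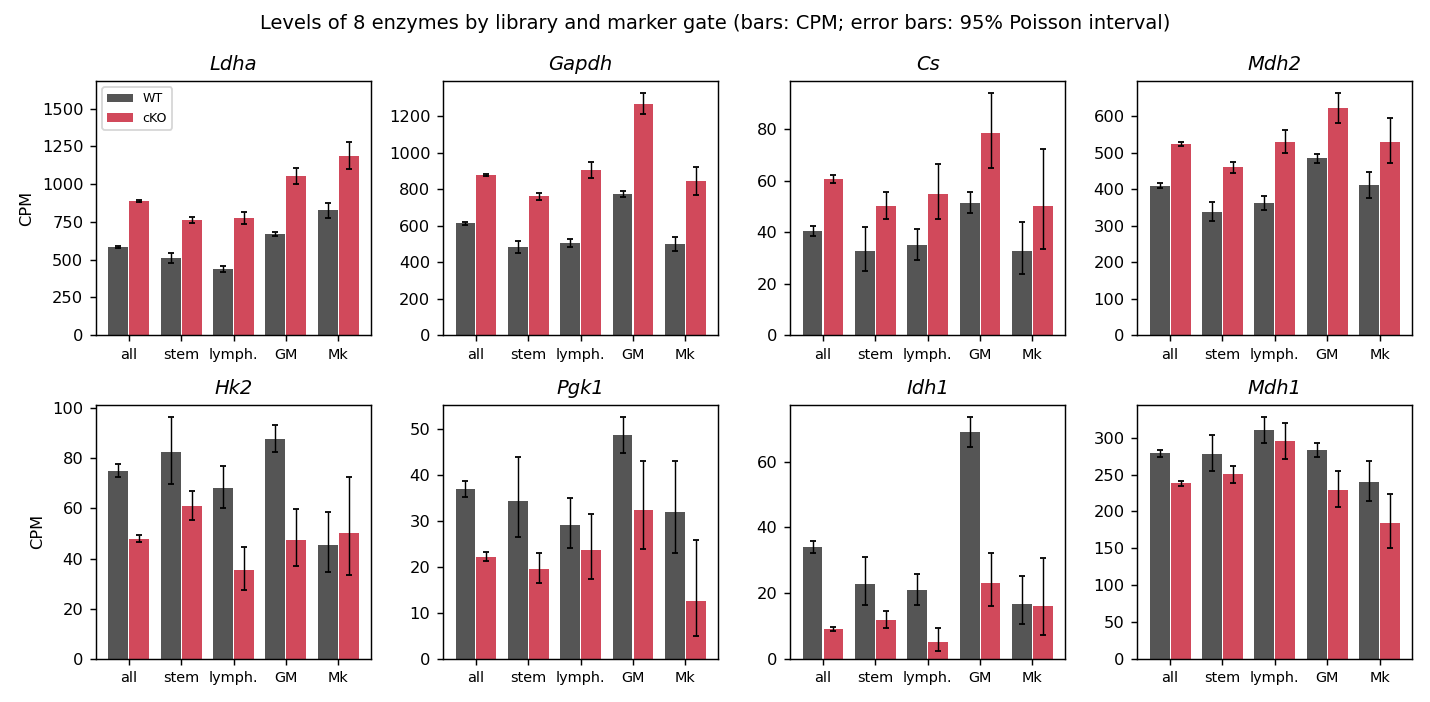
Bars give CPM of 8 enzymes in the WT (grey) and cKO (red) library over all kept cells (all) and in the stem, lymphoid-primed (lymph.), granulocyte-monocyte (GM) and megakaryocyte (Mk) gates, with 95% Poisson intervals of 1 library each. Ldha, Gapdh, Cs and Mdh2 are higher in cKO at each position, and Idh1 in WT is highest in the granulocyte-monocyte gate at 68.9 CPM.

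Enzymes that come in several forms were compared as shares of their family's UMIs. The shares compare genes of different length by 3′ counts, 1 UMI per molecule, so the change between libraries is easier to read than the level. Ldhb made up 19.97% (17.7 to 22.4) of lactate dehydrogenase UMIs in WT stem-gated cells and 12.4% (11.6 to 13.2) in cKO. In the lymphoid-primed gate its share was 10.8% and 3.39%, in the granulocyte-monocyte gate 5.61% and 1.83%, and in the megakaryocyte gate 4.47% and 4.19%, where the intervals overlapped. Mdh2 took 59.5% of malate dehydrogenase UMIs in WT and 68.7% in cKO over all cells, and its share was higher in cKO in each gate: 54.8% and 64.7% in the stem, 53.8% and 64.2% in the lymphoid-primed, 63.1% and 73.1% in the granulocyte-monocyte and 63.1% and 74.2% in the megakaryocyte gate. Idh1 took 11.98% of the UMIs of Idh1 and Idh2 in WT and 4.26% in cKO over all cells. By gate its share was 10.9% and 5.87% in the stem, 7.96% and 2.08% in the lymphoid-primed and 18.2% and 7.94% in the granulocyte-monocyte gate, and 8.43% and 9.18% in the megakaryocyte gate, with overlapping intervals. Pfkp took 15.9% of phosphofructokinase UMIs in WT against 20.3% in cKO over all cells, and 23.5% (21.3 to 25.8) against 38.2% (31.4 to 45.3) in the granulocyte-monocyte gate. Pdk1 made up 79.7% of the UMIs of Pdk1 and Pdk2 in WT and 85.1% in cKO, while the split of Slc2a1 and Slc2a3 was the same within its intervals (42.0% and 41.4% Slc2a1).

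**Figure D4:**
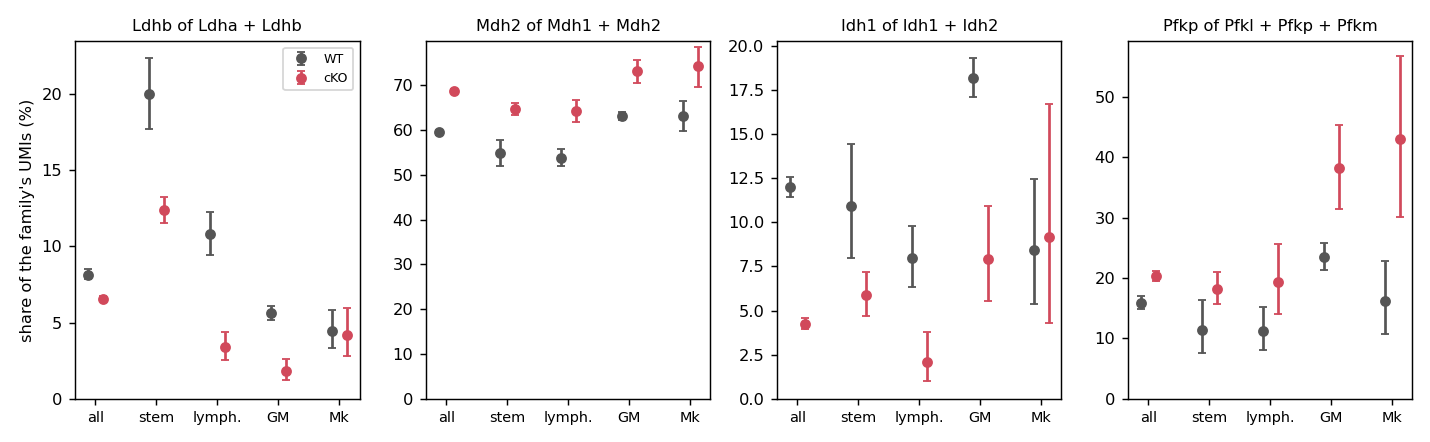
Points give the share of a family's UMIs (%) taken by Ldhb, Mdh2, Idh1 and Pfkp in the WT (grey) and cKO (red) library, over all kept cells and by gate (labels as all, stem, lymph., GM, Mk), with 95% Clopper-Pearson intervals. The share of Mdh2 is higher in cKO at each position, and that of Ldhb is lower in the stem gate, at 12.4% against 19.97%.

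The set also differed between lineages within a library. The stem and granulocyte-monocyte gates differ in more than lineage: 48.5% of the cells in the first and 7.32% in the second had few cycle markers in WT (36.8% and 11.1% in cKO), and the neutrophil genes were at 317 and 3291 CPM in WT. Some members were themselves higher in WT cells with cycle markers, such as Pgam1 (log2 ratio 0.63, against 0.12 in cKO) and Gapdh (0.47, against 0.17 in cKO). The median of this ratio over the members was 0.21 in WT and -0.003 in cKO. The part of cycling and of neutrophil transcripts in the values by lineage was not tested. Of 33 members at 20 CPM or more in the stem or granulocyte-monocyte gate of the WT library, 16 were 1.5-fold higher in the granulocyte-monocyte gate (against 12.6% of all genes tested) and 3 were lower (against 23.8%). In the cKO library 12 of 32 were higher (against 12.8%) and 1 was lower (against 15.6%). These counts follow the level asked for: 3 of the higher members in WT (Pfkp, G6pdx and Dlst) and 3 in cKO reached 20 CPM in the granulocyte-monocyte gate alone, and the 4 members under that level in WT (Slc2a1, Pfkm, Aldoc and Pdk2) were all 1.5-fold lower. With no level asked, 16 of the 37 members were higher and 7 lower in WT, and 12 and 5 in cKO. The shares above are for genes at 20 CPM, so these last counts have no background over all genes here. Tkt, Taldo1, Pgd and G6pdx of the pentose phosphate pathway were 1.5-fold higher in WT, and Tkt and Pgd in cKO, where the interval of G6pdx (-0.06 to 1.08) included 0. In WT, Pgd was at 27.3 CPM in the stem and 60.9 CPM in the granulocyte-monocyte gate (log2 ratio 1.15) and G6pdx was at 18.0 and 35.1 CPM (0.94). Pgam1 was higher by like amounts in WT (158 and 352 CPM, 1.16) and in cKO (152 and 329 CPM, 1.12). Idh1 was at 22.9 and 68.9 CPM in WT (1.57, 1.14 to 2.07) and at 11.9 and 23.0 CPM in cKO (0.96, 0.33 to 1.54). Ldhb ran the other way in both libraries, with 128 CPM in the stem and 39.9 CPM in the granulocyte-monocyte gate of WT (-1.68) and 108 and 19.6 CPM in cKO (-2.43). Slc2a3 was at 20.7 and 4.65 CPM in WT (-2.16), and in cKO it was under 20 CPM in both gates. Pkm was higher in the granulocyte-monocyte gate of WT (0.69, 0.59 to 0.78), but in cKO it was at 767 and 829 CPM (0.11, 0.02 to 0.20).

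**Figure D5:**
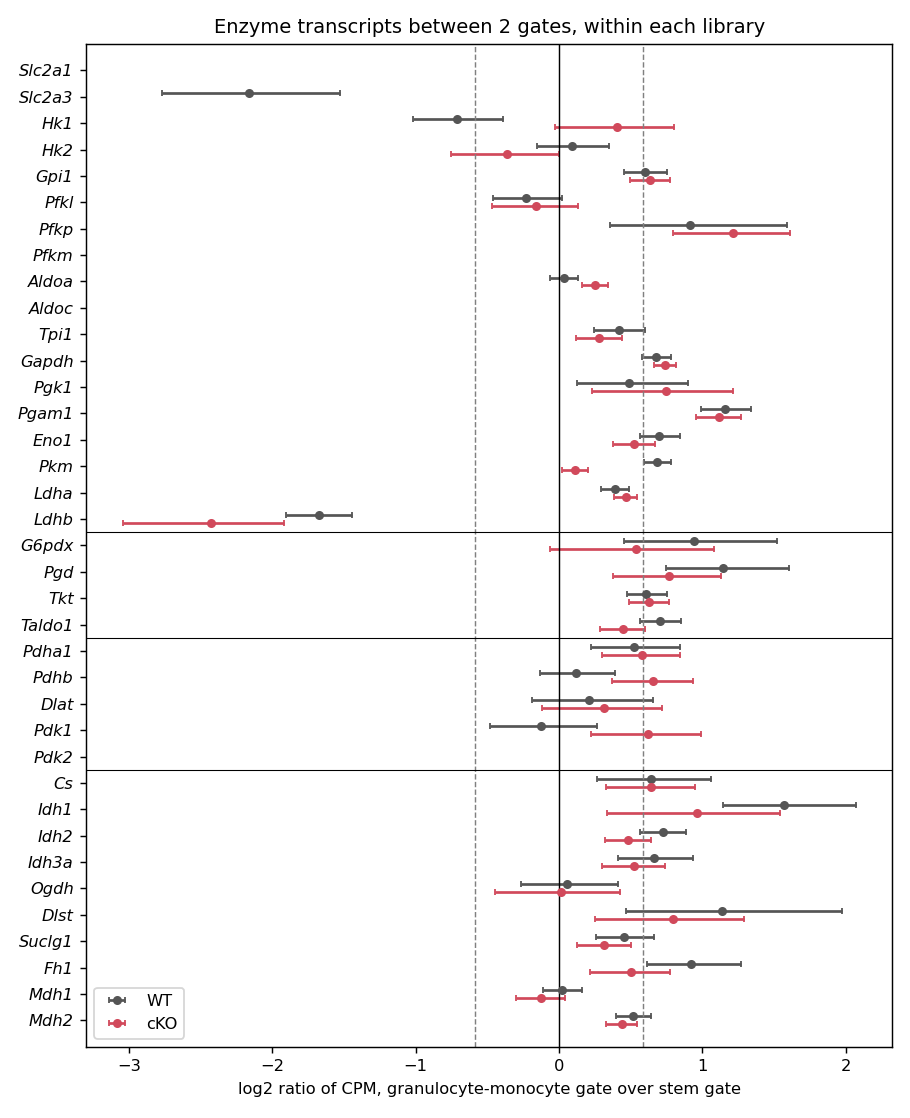
Points give the log2 ratio of CPM in the granulocyte-monocyte over the stem gate for each enzyme in the WT (grey) and cKO (red) library, with 95% counting intervals; dashed lines mark 1.5-fold, and genes under 20 CPM in both gates are left blank. The pentose phosphate genes lie to the right in both libraries, and Ldhb lies to the left at -1.68 in WT and -2.43 in cKO.

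Of 66 other genes of these pathways, listed from general knowledge, 38 reached 10 CPM over all cells in at least 1 library, with a median log2 ratio of 0.09; 4 were 1.5-fold higher in cKO (against 6.45% of all genes at that level) and 1 was lower (against 12.3%). Pck2, the mitochondrial enzyme that turns oxaloacetate into phosphoenolpyruvate, was at 47.1 CPM in WT and 146 in cKO (1.63, 1.57 to 1.70). Got1, the cytosolic aspartate transaminase of the malate-aspartate shuttle, was at 15.5 and 41.9 CPM (1.43). Slc16a1, the lactate and pyruvate transporter MCT1, was at 12.6 and 19.9 CPM (0.66), and Pdk3, a further pyruvate dehydrogenase kinase, at 43.6 and 65.6 CPM (0.59), against the direction of Pdk1 and Pdk2. The lower gene was Hk3, a hexokinase of myeloid cells, at 57.1 and 21.3 CPM (-1.43). The 5th highest ratio belonged to Txnip, an inhibitor of glucose uptake (51.0 and 65.8 CPM, 0.37), and after Hk3 the lowest belonged to Rpia (62.9 and 43.8 CPM, -0.52), Prps2 (-0.41) and Rbks (-0.38), which handle ribose and its phosphates, and Sucla2, a subunit of succinyl-CoA ligase (-0.34).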

How the data were processed

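RNA was counted in single LSK cells of 1 Trmt6 WT and 1 Trmt6 cKO library, as the labels name them. The authors deposited counts of UMIs for each gene and barcode from Cell Ranger 6.0.0 on GRCm38. The kit is v2 in the labels and v3 in the methods of the study. The limits of the study were applied (over 200 genes and under 5% hemoglobin UMIs in both libraries, fewer than 4000 genes in WT and 4500 in cKO, and a mitochondrial share below 10% in WT and below 5% in cKO), and likely doublets, scored by the share of simulated doublets among 50 neighbours, were removed at 0.8% per 1000 barcodes (7.09% of 8869 WT and 7.41% of 9260 cKO barcodes). The libraries shared 24 barcodes.

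Levels are CPM of summed UMIs. Ratios (log2 of cKO over WT, 0.5 counts added to each) have conditional binomial intervals, CPM exact Poisson and shares Clopper-Pearson intervals (scipy 1.17.1, Python 3.11). A genotype has 1 library, so nothing was tested across samples. A gene counts as higher or lower at 1.5-fold, among genes that reach 5 CPM in either library, or 20 CPM in a gate. Cells that met several gates entered none, and free RNA was not removed. All members were named, with the 5 highest and 5 lowest ratios of the other listed genes at 10 CPM or more. The members, gene lists and gates were chosen with earlier results of these data known. The interval code was checked on simulated counts. Alternatives were other scalings (TMM by edgeR 4.0.16, median of ratios), cell filters, doublets kept, thinning, cells with few cycle markers, the same mix of gates, other folds, minimum levels and gates. Cells in no gate and cells with few myeloid UMIs were added after the data were seen. Reads were not analysed here.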

Additional observations from a re-analysis of the deposited data

Results flagged for a closer look

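Eno1, the enolase of most cells, differed between lineages. In the lymphoid-primed gate it was at 230 CPM in WT and 266 in cKO (log2 ratio 0.21, 0.05 to 0.37), and in the granulocyte-monocyte gate at 409 and 343 CPM (-0.25, -0.39 to -0.12). The ratios differ by 0.46 on the log2 scale, with counting intervals on opposite sides of 0. With 1 library per genotype this difference was not tested. In the lymphoid-primed gate it rests on 226 cKO cells and in the granulocyte-monocyte gate on 90. With gates set on cells thinned to 1000 UMIs, Eno1 in the lymphoid-primed gate was at -0.15, and in cells with few cycle markers it was at 0.02 there.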

How the results depend on the processing

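Over all kept cells, 30 of the 37 members kept the sign of their ratio under all 13 alternatives of scaling, filtering and cell choice; the exceptions were Gpi1, Pfkl, Pfkm, Pgam1, Ldhb, Pgd and Pdk1. Members 1.5-fold higher numbered 7, with a median log2 ratio of 0.17, both under the TMM factor and with totals without mitochondrial and ribosomal protein genes. These scalings moved all ratios by 0.10 and took the median of all genes tested from -0.06 to 0.03. The median of the members was -0.0058 in cells thinned to 2000 UMIs and -0.020 in cells with few cycle markers. The lower fold tried gave 10 higher and 9 lower members (16.7% and 28.0% of all genes tested), and a fold of 2 gave 0 higher and 2 lower (2.92% and 5.28%). Members 1.5-fold lower numbered 3 in cells in no gate and also 3 in cells with few granulocyte-monocyte and neutrophil UMIs. In cells with few neutrophil UMIs alone they numbered 6. These cell sets were added after the data were seen, and no share of all genes is given for them.

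Counts in gates moved more. Shares of all genes were given above for size factors within the gate. None is given for the other settings below, so those counts have no background. In the stem gate, 6 members were higher and 1 lower at 3 markers, 6 higher with thinning to 1000 UMIs, 7 higher with size factors within the gate and 7 higher in cells with few cycle markers; at 3 markers the ratio of Pfkp turned to -0.12 and that of Idh1 to 0.41. In the lymphoid-primed gate, 8 were higher with size factors and 7 lower with few cycle markers. In the granulocyte-monocyte gate, 5 were lower at 20 UMIs, 1 higher and 6 lower with gates on all UMIs, and 10 higher and 8 lower with few cycle markers. In the megakaryocyte gate, 11 were higher and 5 lower at 3 markers, 0 lower with gates on all UMIs, 4 higher and 6 lower at 1000 UMIs, 1 lower with cells of several gates kept, 11 higher and 1 lower with size factors, and 8 lower with few cycle markers; there Pfkp turned to -1.81 at 1000 UMIs and to -0.68 with few cycle markers. The cause was not tested. With 48 cKO cells in the megakaryocyte gate and 90 in the granulocyte-monocyte gate, genes near 20 CPM rest on few UMIs. No paired analysis was possible because each genotype has 1 library, and for the same reason no replicate could be left out.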

Other observations

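Some members differed with the cell cycle in both libraries. Cells with more than 1 of 15 mitotic or of 15 S phase markers at 2000 UMIs numbered 5828 of 7950 in WT and 6455 of 8378 in cKO. Aldoc was at 17.2 CPM in the WT cells with few cycle markers and at 4.84 CPM in the others (log2 ratio -1.83), and at 6.43 and 2.77 CPM in cKO (-1.22). Ldhb was at 80.9 and 45.3 CPM in WT (-0.84) and at 81.8 and 58.4 CPM in cKO (-0.49). Pdk2 showed ratios of -1.12 in WT and -1.10 in cKO, and Slc2a3 of -0.96 and -0.49. Aldoa stood out among the abundant enzymes, at 642 and 440 CPM in WT (-0.54) and at 779 and 647 CPM in cKO (-0.27), while its neighbours Tpi1 (0.43 and 0.31) and Gapdh (0.47 and 0.17) were higher in cells with cycle markers. No background over other genes is given for these values.

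The HIF axis, which drives many glycolytic genes in low oxygen, was listed with 12 genes, of which 7 were at 10 CPM or more. Hif1a was at 16.0 CPM in WT and 18.5 in cKO (log2 ratio 0.21). Vegfa, a secreted target, was at 6.58 and 23.4 CPM (1.83, 1.65 to 2.01), and Egln3, a prolyl hydroxylase that is itself a target, at 21.9 and 12.7 CPM (-0.79, -0.92 to -0.67). Bnip3 (30.3 and 28.6 CPM, -0.09) and Bnip3l (125 and 102 CPM, -0.29) were within 1.5-fold.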
